A study of Mus musculus with 4 samples.

Results

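The lysosome and autophagy genes described here are 82 protein-coding genes of 54532 genes in the deposited table. A rule on gene names took them, with no measured value in it, but the rule was chosen with earlier results of these data known. They are the subunits of the vacuolar ATPase (names beginning Atp6v0 or Atp6v1), the cathepsins, the LAMP proteins and the ATG genes. The LC3 and GABARAP genes, the ULK kinases, and the 5 genes Tfeb, Tfe3, Becn1, Nbr1 and Optn complete them. Naive CD4+ T cells from the spleen of WT mice were kept for 3 days in culture conditions for T follicular helper (Tfh) cells, the helper T cells that drive antibody responses of B cells. Untreated cultures (control, 2 libraries) were compared with cultures given dimethyl fumarate (DMF, 2 libraries), a drug that activates the transcription factor Nrf2. All 4 libraries share genotype, tissue and culture conditions, and the labels give no DMF dose and do not say whether animals were pooled or whether replicates came from separate cultures. The p-values below therefore measure only the spread between these libraries, which may be technical.

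Lysosomes break down material delivered by endocytosis and by autophagy, in which a double membrane closes around cytoplasm and then fuses with the lysosome. The vacuolar ATPase pumps protons into the lysosome, cathepsins digest protein in the acid interior, and the ULK kinases, Beclin 1 and the ATG proteins build the autophagosome and attach LC3 and GABARAP proteins to its membrane. TFEB and TFE3 are transcription factors that switch on many of these genes through a DNA element named CLEAR, and T cells use autophagy and lysosomes for survival, metabolism and turnover of organelles after activation.

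The element gives a sequence to look for beside the expression values. RefSeq promoter windows (GRCm38.p6, 250 bases before to 50 after a gene's start) were matched by symbol for 67 of the 82 genes, giving 78 windows. The letters GTCACGTG, from the centre of the CLEAR element, were searched on both strands. They occurred in 8 of the 78 windows (10.3%) and in 2.25% of all 32851 windows of that length, each match also being a match to the shorter CACGTG, which occurred in 16.7% and 7.15%. The 8 genes were Atg3, Atg7, Atg14, Atp6v0b, Atp6v0d1, Ctsa, Ctsd and Lamp1. Windows of 4 of them are printed because each comes from another part of the pathway: Ctsd at chr7:142387828-142388077 on the minus strand, Lamp1 at chr8:13158911-13159160 on the plus strand, Atp6v0b at chr4:117887330-117887579 on the minus strand and Atg3 at chr16:45158579-45158828 on the plus strand. Each run is the 250 bases before the RefSeq start, 5′ to 3′ on the gene's strand, with GTCACGTG or its reverse complement in capitals.
Ctsd: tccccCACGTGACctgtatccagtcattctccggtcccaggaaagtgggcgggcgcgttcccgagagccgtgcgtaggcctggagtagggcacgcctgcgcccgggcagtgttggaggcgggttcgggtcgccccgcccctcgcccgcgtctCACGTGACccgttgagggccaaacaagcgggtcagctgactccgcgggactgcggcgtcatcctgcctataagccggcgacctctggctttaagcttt
Lamp1: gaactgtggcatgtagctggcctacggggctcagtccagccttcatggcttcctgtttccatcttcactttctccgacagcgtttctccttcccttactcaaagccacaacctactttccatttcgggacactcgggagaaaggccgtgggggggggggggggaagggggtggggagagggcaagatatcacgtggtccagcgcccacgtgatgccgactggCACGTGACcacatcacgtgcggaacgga
Atp6v0b: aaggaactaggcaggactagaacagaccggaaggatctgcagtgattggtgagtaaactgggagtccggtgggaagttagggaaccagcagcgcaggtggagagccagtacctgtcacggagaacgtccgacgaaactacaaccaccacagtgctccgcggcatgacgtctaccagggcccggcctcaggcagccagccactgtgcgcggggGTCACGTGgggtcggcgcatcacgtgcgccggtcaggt
Atg3: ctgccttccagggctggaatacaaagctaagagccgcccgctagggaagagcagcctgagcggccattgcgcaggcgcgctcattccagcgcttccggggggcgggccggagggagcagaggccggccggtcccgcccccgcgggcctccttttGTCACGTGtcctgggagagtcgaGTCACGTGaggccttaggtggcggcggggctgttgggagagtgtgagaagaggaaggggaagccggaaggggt

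In the Ctsd and Atg3 windows the letters occurred at 2 places each, beginning 245 and 98 bases before the Ctsd start and 96 and 73 bases before the Atg3 start. They began 28 bases before the start in Lamp1 and 38 in Atp6v0b. The Ctsd, Atp6v0b and Atg3 runs partly overlap their genes in the deposited coordinates, from which the RefSeq starts differ. A match is a description of the letters and no measured binding site. Expression of the 8 genes is set beside that of the others after the single families.

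The level of a gene is given as FPKM (reads per kilobase of gene, scaled to the library), so that levels can be set side by side between genes. A log2 difference is DMF minus control on the log2(FPKM + 1) scale, which understates the difference of low genes, and is given with its standard error (SE). Genes averaging 1 FPKM or more in these libraries were tested, 59 of the 82 and 12166 in all. Of the other 23 genes, 10 were listed at 0 in every library and 13 had a read in at least 1 library. Reads worked out from the FPKM came to 17171199 and 15900118 in control replicates 1 and 2 and to 17134385 and 17516953 in the DMF replicates. The library sizes that the FPKM imply were 17725674 and 13929627 in the control and 18302380 and 18672223 in the DMF replicates. Control replicate 2 was thus scaled by a size below its reads, and the other libraries by sizes above theirs. The part of this scaling in the differences was not tested. Control replicate 2 stood apart: it was the highest of the 4 libraries in 38 of the 59 genes and the lowest in 12. Its difference from control replicate 1 followed gene length, with a Spearman rho of -0.53 over these 59 genes and -0.44 over all 12166, a description over genes of 2 libraries. The DMF mean minus control replicate 1 had a rho with length of 0.26 over these genes and 0.06 over all. Results that rest on control replicate 2 are therefore also given against control replicate 1 alone.

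The 8 listed T cell markers were present in every library, with Cd3e at 46.0 to 57.3 and Cd4 at 100 to 128 FPKM. Both DMF libraries lay below both controls for 5 of them (62.5%) and above for 0, against 26.8% and 26.4% of all tested genes. The median log2 difference of the 8 markers was -0.44 (-0.13 against control replicate 1 alone). The smallest p in that list had Cd3g at 55.3 and 99.6 FPKM in control and 40.8 and 40.8 in DMF libraries, Cd3d at 144 and 338 against 115 and 117, and Trbc2 at 587 and 1352 against 517 and 491. Their part in the lower values of the lysosome and autophagy genes was not tested. Markers of some other cells also differed between the groups, though limma called 0 of them at an adjusted p under 0.05. The 10 listed CD8 T and NK cell markers summed to 113 to 154 FPKM in the control libraries, most of it Gzmb, and to 8.63 to 8.98 FPKM in the DMF libraries, with Ncr1 and Klrb1c listed at 0 in all 4. The 10 B cell markers summed to 12.2 to 15.4 FPKM in control and 27.9 to 28.5 FPKM in DMF libraries. For 6 of the 7 tested B cell markers both DMF libraries lay above both controls (85.7%, against 26.4% of all tested genes). The 12 macrophage and monocyte markers summed to 8.93 to 12.5 and 7.16 to 8.47 FPKM, with C1qb at 0, and of the 3 tested, Lyz2 and Cd14 lay below both controls and Cd68 above. The 8 dendritic cell markers summed to 10.8 to 27.0 and 1.12 to 1.13 FPKM, nearly all of it Batf3 in control, with Clec9a and Cd209a at 0. Only 1 of these 8 and 4 of the 10 CD8 T and NK cell markers were tested, and each control sum rests mostly on 1 gene. Neutrophil and erythroid markers summed to at most 0.865 and 2.96 FPKM. In bulk RNA, fewer cells of a type and less of a transcript per cell, in whichever cells make it, cannot be told apart.

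Most of these transcripts were at lower levels in the DMF libraries, by small amounts. Both DMF libraries lay below both controls for 29 of the 59 tested genes (49.2%, against 26.8% of all tested genes) and above both for 6 (10.2%, against 26.4% of all). The other 24 overlapped. The median log2 difference was -0.20 over the 59 genes and -0.01 over all tested genes, and 42 of the 59 differences were negative. Against control replicate 1 alone, both DMF libraries were below it for 37 genes (62.7%, against 39.6% of all) and above it for 16 (27.1%, against 43.4%), with medians of -0.13 and 0.01. The share below control was above the background with and without control replicate 2, and no test compared these genes with the rest.

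No single gene passed the test. limma called 0 of the 59 genes and 0 of all 12166 (0%) at an adjusted p under 0.05, and voom (limma's method for counts, run on reads worked out from FPKM) called 0 as well, with 1183 at an unadjusted p under 0.05. At an unadjusted p under 0.05, limma counted 6 of the 59 genes (10.2%), close to the background of 9.45% of all tested genes: Atp6v0d2, Atp6v0a1, Ctsw, Ctss, Optn and Atg9b. Without control replicate 2, limma called 2 of the 59 genes (3.39%), Gabarap and Ctss, against 8.28% of all tested genes. Leaving out control replicate 1 instead gave 40 of the 59 genes (67.8%), against 61.0% of all. In each such fit the lone control is assumed to vary like the DMF libraries. With voom, which scales libraries by their reads and moves the median of all genes to 0.15, the 59 genes split into 23 below both controls (against 19.7% of all) and 13 above (against 36.0% of all), with a median of -0.06.

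**Figure D1:**
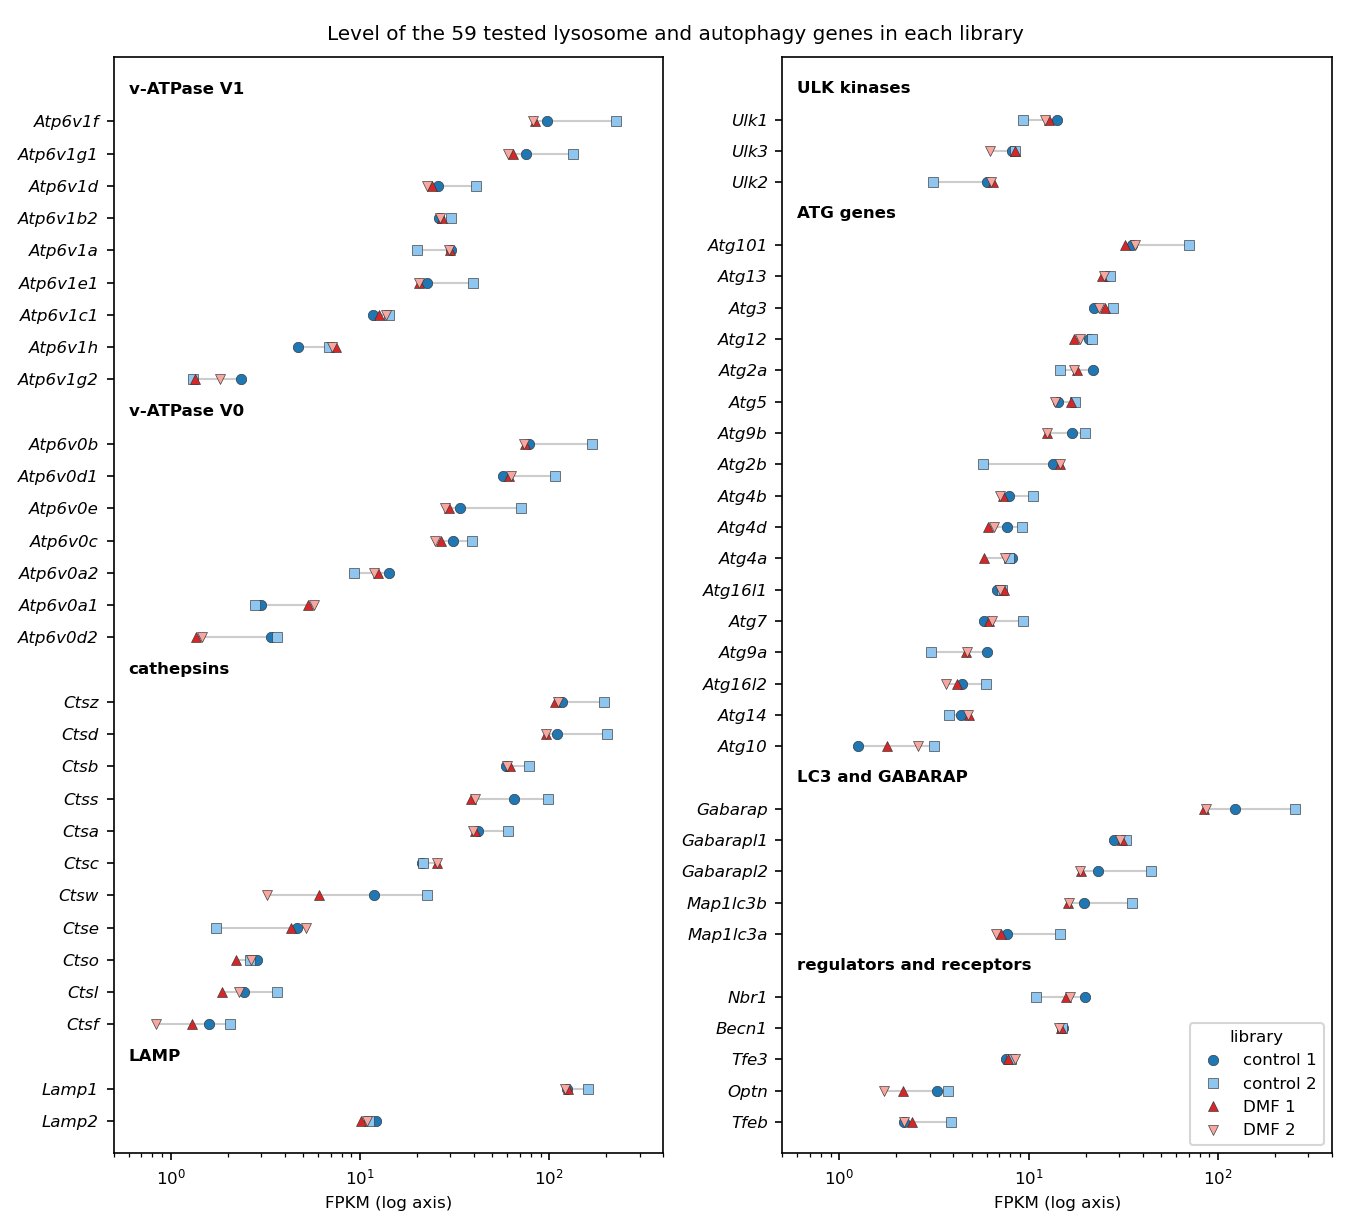
Level of each of the 59 tested genes in the 4 libraries, in FPKM on a log axis, with genes grouped by family and 1 point per library (circle and square, control 1 and 2; triangles, DMF 1 and 2). The square of control 2 lies furthest right in 38 genes, and both triangles lie left of both control points in 29.

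The factors that switch on the program were themselves at low and similar levels. Tfeb was at 2.19 and 3.89 FPKM in the control libraries and 2.42 and 2.18 in the DMF libraries, so that the groups overlapped. Its log2 difference of -0.26 ± 0.28 (SE, limma adjusted p = 0.652) was 0.05 against control replicate 1 alone. Tfe3 was at 7.57 and 8.03 in control and 7.78 and 8.45 FPKM in DMF libraries, again overlapping, with a difference of 0.05 ± 0.17 that became -0.19 with the gene length trend removed. Transcript level says nothing of the movement of either protein into the nucleus, through which both are known to be controlled. The kinase complex mTORC1, which holds TFEB in the cytoplasm, is activated on the lysosome by the Rag GTPases and Ragulator. Of 28 genes listed for mTORC1, Ragulator, the Rags and their regulators, 23 were tested, 6 lay below both controls and 6 above (26.1% each way, against the 26.8% and 26.4% of all tested genes given above), and 0 reached an unadjusted p under 0.05 in limma, with a median of -0.05. Smallest p in that list had Nprl2, a subunit of the GATOR1 complex that restrains mTORC1, at 9.53 and 16.0 FPKM in control and 7.82 and 6.04 in DMF libraries. Next were Lamtor4, a Ragulator subunit, at 31.5 and 71.6 against 22.9 and 27.3 FPKM, and Tsc2, an inhibitor of mTORC1 signalling, at 8.45 and 6.16 against 9.97 and 9.97 FPKM. The groups of these 3 genes did not overlap, with the DMF libraries lower for Nprl2 and Lamtor4 and higher for Tsc2. Tfeb, Tfe3, Becn1, Nbr1 and Optn together had a median of -0.04.

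The vacuolar ATPase has a V1 part in the cytosol that splits ATP and a V0 part in the membrane that carries protons. Of 14 V1 genes, 9 were tested, with 4 below both controls (44.4%, against 26.8% of all genes), 1 above and 4 overlapping, and a median log2 difference of -0.12 (-0.13 against control replicate 1 alone). The most abundant, Atp6v1f (subunit F), was at 97.1 and 226 FPKM in control and 83.7 and 82.3 FPKM in DMF libraries. Its difference of -0.83 ± 0.46 (SE, limma adjusted p = 0.561) was -0.22 against control replicate 1 alone, since control replicate 2 was far above the other 3 libraries. Atp6v1g1 (subunit G1) behaved alike, at 75.5 and 133 against 64.3 and 60.5 FPKM. Atp6v1e1 and Atp6v1d, subunits of the stalk between the parts, were at 22.7 and 39.5 against 20.6 and 20.5 FPKM, and at 25.8 and 41.0 against 24.2 and 22.7 FPKM. All 4 of these had both DMF libraries just below control replicate 1 and well below control replicate 2.

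The catalytic ring of V1 showed no such order. Atp6v1a (the catalytic subunit A) was at 30.3 and 19.9 FPKM in control and 29.9 and 29.7 in DMF libraries, and Atp6v1b2 (subunit B2) at 26.3 and 30.4 against 27.2 and 26.4 FPKM, both overlapping. Atp6v1h (subunit H, which regulates the pump) was the 1 V1 gene with both DMF libraries above both controls, at 7.48 and 7.16 against 4.71 and 6.87 FPKM, a log2 difference of 0.31 ± 0.23 (SE, limma adjusted p = 0.573). It was 0.06 with the gene length trend removed and 0.54 against control replicate 1 alone.

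The V0 part held the gene with the smallest p of all 59. Atp6v0d2, which encodes the d2 form of the V0 stalk subunit, known from osteoclasts and macrophages, lies at chr4:19876841-19922605 (GRCm38, minus strand). It was at 3.39 and 3.65 FPKM in the control libraries (mean 3.52 ± 0.185, SD, n = 2) and at 1.37 and 1.46 FPKM in the DMF libraries (1.41 ± 0.0645). The control libraries were close together, and both were well above both DMF libraries. The level in control was 2.49 times that in DMF libraries, the log2 difference was -0.90 ± 0.19 (SE, limma adjusted p = 0.321, with a range over the alternatives of 0.0127, without control replicate 1, to 1.00), and it was -0.86 against control replicate 1 alone. Its sister Atp6v0d1, the d1 form made in most cells, was at 57.2 and 107 against 61.6 and 62.5 FPKM and overlapped. The d2 form made up 5.59% and 3.29% of the summed d subunit level in control and 2.17% and 2.28% in DMF libraries.

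Atp6v0a1 moved the other way. It encodes the a1 form of the large membrane subunit, best known from neurons, and lies at chr11:101009452-101063719 (GRCm38, plus strand). It was at 2.99 and 2.79 FPKM in the control libraries (mean 2.89 ± 0.137, SD, n = 2) and at 5.30 and 5.70 FPKM in the DMF libraries (5.50 ± 0.284). The 2 libraries of each group were close and the groups did not overlap. DMF libraries held 1.90 times the control level, with a log2 difference of 0.74 ± 0.18 (SE, limma adjusted p = 0.372, with a range over the alternatives of 0.00932, without control replicate 1, to 1.00) and 0.71 against control replicate 1 alone. The a1 form made up 7.50% and 6.59% of the summed a subunit level in control and 13.3% and 13.5% in DMF libraries. The a2 form (Atp6v0a2) overlapped between groups at 14.3 and 9.33 against 12.5 and 11.8 FPKM, as did the a3 form (Tcirg1, known from osteoclasts and T cells and not among the 82 names) at 22.5 and 30.2 against 22.0 and 24.8 FPKM. Tcirg1 was the largest share of the a subunits in every library, at 55.3% to 71.4%.

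The promoter window of Atp6v0a1 is printed because this gene had the highest log2 difference of the 59 and DMF is known to activate Nrf2, which binds DNA letters of the form TGACNNNGC (the antioxidant response element). The run covers the 250 bases before the RefSeq start at chr11:101010148-101010397 on the plus strand (GRCm38.p6), with matches on either strand in capitals. In the deposited coordinates the gene begins at 101009452, so the whole run lies inside the gene and not upstream of it. The 2 matches share no base and follow each other directly, beginning 220 and 211 bases before the start.
Atp6v0a1: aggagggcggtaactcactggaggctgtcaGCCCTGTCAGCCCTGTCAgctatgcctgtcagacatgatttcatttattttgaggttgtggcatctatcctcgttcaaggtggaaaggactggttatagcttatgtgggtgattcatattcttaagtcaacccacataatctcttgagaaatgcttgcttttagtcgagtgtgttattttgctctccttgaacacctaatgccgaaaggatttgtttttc

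These letters are common: TGACNNNGC occurred in 11 of the 78 windows (14.1%) and in 12.4% of all windows, a share near the background. The 11 genes were Atg13, Atp6v0a1, Atp6v1a, Atp6v1e2, Atp6v1g2, Cts8, Ctsd, Ctsq, Ctsz, Map1lc3b and Ulk2. Of the 8 that were tested, 4 lay below both controls and 2 above, with a median log2 difference of -0.11. The 38 tested genes with a window and no match had 19 below and 3 above, with a median of -0.29. Over all tested genes, 26.8% lay below both controls and 26.4% above.

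**Figure D2:**
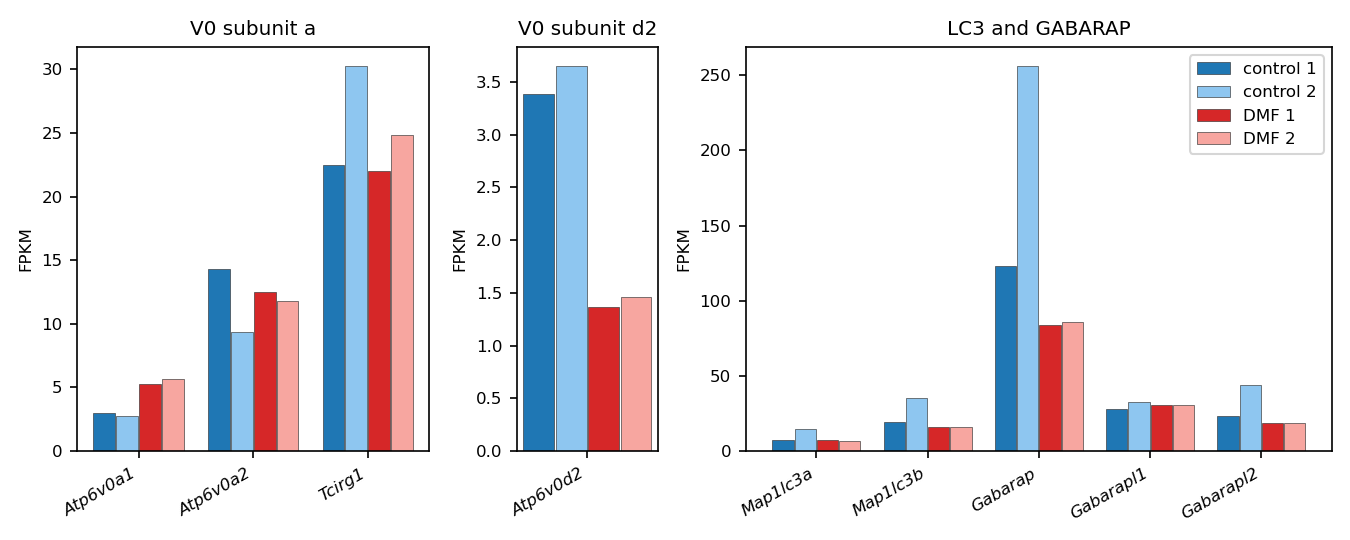
Level in FPKM (bars from 0, 1 bar per library) of the 3 main a subunit forms, of the d2 subunit and of the LC3 and GABARAP genes. Atp6v0a1 is higher in both DMF bars (5.30 and 5.70) than in both control bars (2.99 and 2.79), Atp6v0d2 and Gabarap are lower, and Gabarapl1 is alike in all 4.

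The proton-carrying ring of V0 is built from the c subunits. Atp6v0c (subunit c) was at 30.9 and 39.1 FPKM in control and 26.9 and 24.9 FPKM in DMF libraries, a log2 difference of -0.41 ± 0.21 (SE, limma adjusted p = 0.561). Atp6v0b (subunit c″) was at 78.4 and 168 against 74.4 and 73.2 FPKM, and Atp6v0e (subunit e) at 33.9 and 71.1 against 29.7 and 28.3 FPKM. In all 3 genes both DMF libraries were lower than both controls, by less against control replicate 1 than against control replicate 2. The 7 tested V0 genes had 4 below (57.1%, against 26.8% of all tested genes), 1 above (14.3%, against 26.4%) and 2 overlapping. Their median log2 difference was -0.41, and -0.22 against control replicate 1 alone. Of 13 listed subunits and accessory proteins with other names, 11 were tested, with 3 below and 3 above both controls (27.3% each, near the background), 0 at an unadjusted p under 0.05 in limma and a median of -0.03.

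Cathepsin transcripts were lower in the DMF libraries for most members that were tested. Of 22 genes, 11 were tested, with 7 below both controls (63.6%, against 26.8% of all genes), 1 above and 3 overlapping, and a median log2 difference of -0.37 (-0.16 against control replicate 1 alone). Summed over the family, the level was 439 and 689 FPKM in control and 388 and 389 FPKM in DMF libraries. The 2 genes furthest below control were Ctsw and Ctss. Placental cathepsins Cts3, Cts6, Cts7, Cts8, Ctsj, Ctsm, Ctsq and Ctsr were listed at 0 in all 4 libraries.

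Ctsw encodes cathepsin W, a cysteine protease known from cytotoxic T and NK cells, and lies at chr19:5465240-5468498 (GRCm38, minus strand). It was at 11.9 and 22.6 FPKM in control (mean 17.2 ± 7.56, SD, n = 2) and at 6.08 and 3.22 FPKM in DMF libraries (4.65 ± 2.02). Both controls were above both DMF libraries, and the libraries within each group were far apart. The control level was 3.70 times the DMF level, with a log2 difference of -1.67 ± 0.42 (SE, limma adjusted p = 0.384) and -1.24 against control replicate 1 alone. With a block for the replicate number the limma adjusted p was 8.29e-05, and 0.207 with the gene length trend also removed. The labels do not say that libraries of the same number belong together. Beside it, the CD8 T and NK cell markers were lower in the same libraries: Cd8a was at 1.68 and 2.17 against 0.105 and 0.0589 FPKM, Klrd1 at 5.28 and 8.85 against 0.128 and 0.753 FPKM, and Gzmb at 98.1 and 131 against 5.14 and 5.82 FPKM. Of the 10 markers in that list, 4 were tested, and all 4 were lower in both DMF libraries (100%, against 26.8% of all tested genes). The part of these markers in the Ctsw difference was not tested.

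Ctss encodes cathepsin S, which trims the invariant chain of MHC class II in antigen-presenting cells, and lies at chr3:95526786-95556403 (GRCm38, plus strand). It was at 65.5 and 98.2 FPKM in control (mean 81.8 ± 23.1, SD, n = 2) and at 38.6 and 40.7 FPKM in DMF libraries (39.7 ± 1.47). The DMF libraries were close to each other and both below both controls. The control level was 2.06 times the DMF level, with a log2 difference of -0.998 ± 0.27 (SE, limma adjusted p = 0.408). Without control replicate 2 the difference was -0.71 (limma adjusted p = 0.0246, within a range of 0.00169 to 0.9995 over all alternatives). B cell markers, from cells that also make cathepsin S, were higher in the DMF libraries, while Lyz2, Cd14 and Batf3 were lower and the macrophage marker Cd68 was higher. Their part in the Ctss difference was not tested.

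Ctsd, Ctsz, Ctsb and Ctsa were among the most abundant. Ctsd (cathepsin D, an aspartic protease of nearly all lysosomes) was at 110 and 202 FPKM in control and 96.7 and 95.9 FPKM in DMF libraries, a log2 difference of -0.63 ± 0.36 (SE, limma adjusted p = 0.561) and -0.20 against control replicate 1 alone. Ctsz (cathepsin Z, a carboxypeptidase) was at 116 and 195 against 108 and 112 FPKM, and Ctsa (cathepsin A, which also protects lysosomal galactosidase) at 42.0 and 60.2 against 40.7 and 39.5 FPKM. For these 3 genes both DMF libraries were below control replicate 1 by a little and below control replicate 2 by much. Ctsb (cathepsin B, a cysteine protease) was at 59.3 and 77.9 against 61.9 and 60.1 FPKM and overlapped.

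Ctsc (cathepsin C, the dipeptidyl peptidase that activates granzymes and other serine proteases) was the 1 cathepsin with both DMF libraries above both controls. It was at 21.3 and 21.5 FPKM in control and 25.6 and 25.4 FPKM in DMF libraries, close within each group, with a log2 difference of 0.24 ± 0.17 (SE, limma adjusted p = 0.567). Gzmb, the transcript of a protease that it activates, was lower in the same libraries. Among low cathepsins, Ctsl (cathepsin L) was at 2.43 and 3.63 against 1.87 and 2.29 FPKM and Ctsf (cathepsin F) at 1.60 and 2.07 against 1.30 and 0.841 FPKM, lower in both DMF libraries. Ctse (cathepsin E, an aspartic protease of endosomes) was at 4.68 and 1.74 against 4.33 and 5.22 FPKM, with control replicate 2 apart from the other 3. Below the filter, Ctsh (cathepsin H) had 35 and 30 reads in control and 64 and 58 in DMF libraries, and Ctsk (cathepsin K) had 11 and 13 against 16 and 8.

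Cathepsins are held in check by cystatins and serpins and reach the lysosome by sorting receptors. Of 16 such genes listed, 14 were tested, with 5 below both controls (35.7%) and 2 above (14.3%). Over all tested genes these shares were 26.8% and 26.4%. At an unadjusted p under 0.05, limma counted 3 of the 14 lower and 1 higher, against 6.31% lower and 3.14% higher of all. The median of the 14 genes was -0.23, and 0.01 against control replicate 1 alone. Serpinb6b, an intracellular serine protease inhibitor, was at 24.4 and 23.2 FPKM in control and 6.40 and 7.53 FPKM in DMF libraries, a log2 difference of -1.64 ± 0.18 (SE, limma adjusted p = 0.176). Serpina3g, an inhibitor of cathepsins in T cells, was at 5.55 and 8.36 against 1.71 and 1.32 FPKM, a difference of -1.64 ± 0.26 (SE, limma adjusted p = 0.224). Serpinb9, the inhibitor of granzyme B, was at 15.5 and 13.4 against 8.62 and 8.51 FPKM. The groups of these 3 genes did not overlap, and the DMF libraries were lower.

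The LAMP proteins coat the inner face of the lysosomal membrane. Lamp1 was among the most abundant of the 82 genes, at 125 and 160 FPKM in control and 125 and 121 FPKM in DMF libraries, overlapping, with a log2 difference of -0.20 ± 0.25 (SE, limma adjusted p = 0.691) that was 0.23 under quantile normalization and -0.02 against control replicate 1 alone. Lamp2, whose product is also needed for chaperone-mediated autophagy, was at 12.1 and 11.2 against 10.2 and 10.9 FPKM. Its DMF libraries were both lower, by a difference of -0.14 ± 0.17 that was 0.02 with voom. Lamp3 (a form known from mature dendritic cells) had 7 and 8 reads in control and 12 and 29 in DMF libraries, and Lamp5 was listed at 0.

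Medians of the other lysosomal gene lists were nearer to 0 than the -0.20 over the 59 genes. That of the hydrolases was close to the medians of the V1 (-0.12) and ATG genes (-0.09). Of 42 lysosomal hydrolases and cofactors, 38 were tested, with 17 below both controls (44.7%) and 8 above (21.1%). Over all tested genes these shares were 26.8% and 26.4%. At an unadjusted p under 0.05, limma counted 3 of the 38 lower and 0 higher, against 6.31% lower and 3.14% higher of all. The median of the 38 genes was -0.11, and -0.09 against control replicate 1 alone. Npc2, the cholesterol carrier of the lysosome, was at 116 and 227 FPKM in control and 58.4 and 57.6 FPKM in DMF libraries, a log2 difference of -1.47 ± 0.38 (SE, limma adjusted p = 0.398). Acp5 (tartrate-resistant acid phosphatase) was at 22.7 and 40.1 against 14.2 and 14.9 FPKM. Both DMF libraries were lower than both controls in these genes. Of 29 membrane proteins and transporters, 27 were tested, with 8 below (29.6%, near the background), 5 above (18.5%), 1 lower and 0 higher at an unadjusted p under 0.05 in limma, and a median of -0.01. Abcb9, a peptide transporter, was at 4.08 and 7.05 against 2.49 and 2.69 FPKM, Scarb2, a membrane protein of the lysosome, at 15.5 and 18.1 against 12.9 and 13.2, and Pqlc2, an amino acid exporter, at 6.001 and 8.37 against 5.50 and 4.68.

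Autophagy starts with the ULK kinases. Ulk1 was at 14.0 and 9.34 FPKM in control and 12.8 and 12.2 FPKM in DMF libraries and overlapped, with a log2 difference of 0.11 ± 0.24 (SE, limma adjusted p = 0.820) that was -0.16 against control replicate 1 alone. Ulk2, a near relative with the same role, was at 6.04 and 3.11 against 6.50 and 6.33 FPKM, with both DMF libraries above both controls and control replicate 1 only narrowly below them. Ulk3 was at 8.16 and 8.44 against 8.45 and 6.26 FPKM. Ulk4, a distant relative regarded as a pseudokinase, had 45 and 13 reads in control and 25 and 45 in DMF libraries. The median of the 3 tested kinases was 0.11, and -0.14 against control replicate 1 alone. The ULK partners Atg13 and Atg101 were at 26.0 and 26.9 against 24.4 and 25.0 FPKM, and at 35.1 and 70.5 against 32.1 and 36.3 FPKM. Atg13 had both DMF libraries below both controls by a difference of -0.09 that was 0.04 under quantile normalization, and Atg101 overlapped.

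Beclin 1 and ATG14 form the lipid kinase complex that marks the site of the new membrane. Becn1 was at 15.2 and 15.0 FPKM in control and 14.8 and 14.5 FPKM in DMF libraries. Both DMF libraries were below both controls by little, a log2 difference of -0.04 ± 0.16 (SE, limma adjusted p = 0.896) that was 0.12 with voom. Atg14 was at 4.40 and 3.79 against 4.84 and 4.77 FPKM, higher in both DMF libraries. Atg2b, which moves lipid into the growing membrane, was at 13.4 and 5.74 against 14.7 and 14.6 FPKM. Its log2 difference of 0.67 ± 0.40 (SE, limma adjusted p = 0.561) was 0.12 against control replicate 1 alone, because control replicate 2 was far below the other 3 libraries. The gene is the longest of the 59, at 13456 bases.

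Atg9b had the smallest p of the ATG genes. It encodes a form of the lipid scramblase ATG9, and was at 16.9 and 19.9 FPKM in control (mean 18.4 ± 2.12, SD, n = 2) and 12.6 and 12.5 FPKM in DMF libraries (12.5 ± 0.0127). Both DMF libraries were below both controls, with a log2 difference of -0.51 ± 0.18 (SE, limma adjusted p = 0.515) and -0.40 against control replicate 1 alone. Atg9a, the form made in most tissues, was at 6.04 and 3.05 against 4.68 and 4.74 FPKM and overlapped.

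Among the genes for conjugation of LC3, Atg3, whose product joins LC3 to lipid, was at 22.0 and 27.8 FPKM in control and 25.2 and 23.5 FPKM in DMF libraries and overlapped. Atg7, which activates LC3 and ATG12, was at 5.82 and 9.30 against 6.19 and 6.37 FPKM and overlapped, as did Atg10 and Atg5. Atg12 was at 20.9 and 21.7 against 17.4 and 18.7 FPKM, with both DMF libraries below both controls. The proteases that prepare LC3 and free it again were lower: Atg4b was at 7.86 and 10.6 against 7.33 and 7.01 FPKM and Atg4d at 7.71 and 9.19 against 6.08 and 6.59 FPKM, with log2 differences of -0.31 ± 0.21 and -0.36 ± 0.18. Both had both DMF libraries below both controls, as had Atg4a at 8.16 and 7.85 against 5.81 and 7.53 FPKM. Atg4c had 53 and 13 reads in control and 36 and 30 in DMF libraries. Atg16l2, a relative of the scaffold ATG16L1, was at 4.45 and 5.92 against 4.20 and 3.64 FPKM. Of 19 ATG genes, 17 were tested, with 7 below both controls (41.2%, against 26.8% of all genes), 2 above (11.8%) and 8 overlapping, and a median of -0.09 that was 0.01 under quantile normalization. From the deposited coordinates, 11 of the 59 tested genes shared positions with another tested gene, 9 of them on the opposite strand, among them Atg16l2, Atg4b, Atg4d and Ctsa. Whether the counting used strand is not given in the sources used here, so values of these genes are uncertain.

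The LC3 and GABARAP genes had the lowest family median, -0.66 over 5 tested genes, with 4 below both controls (80%, against 26.8% of all genes) and 1 overlapping. Against control replicate 1 alone that median was -0.26, under quantile normalization -0.53, with the gene length trend removed -0.49 and with voom -0.52. Their proteins are attached to the autophagosome membrane, where they draw in cargo receptors. Their summed level was 202 and 383 FPKM in control and 157 and 158 FPKM in DMF libraries, a ratio of DMF to control of 0.540, and of 0.782 against control replicate 1 alone.

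Gabarap made up most of that sum. It lies at chr11:69991143-69994951 (GRCm38, plus strand) and was at 123 and 256 FPKM in control (mean 189 ± 94.2, SD, n = 2) and at 83.9 and 85.9 FPKM in DMF libraries (84.9 ± 1.41). The DMF libraries were close to each other and below both controls, while control replicate 2 was far above control replicate 1. The log2 difference was -1.05 ± 0.41 (SE, limma adjusted p = 0.536). Without control replicate 2 it was -0.53 (limma adjusted p = 0.0242, within a range of 0.00134 to 0.9995 over all alternatives). Gabarap was 60.9% and 66.9% of the summed level of the 5 genes in control and 53.4% and 54.3% in DMF libraries.

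Gabarapl2 was at 23.2 and 44.1 FPKM in control and 18.9 and 18.8 FPKM in DMF libraries, a log2 difference of -0.74 ± 0.34 (SE, limma adjusted p = 0.558). Map1lc3b, the LC3 form used as the usual marker of autophagosomes, was at 19.7 and 35.0 against 16.2 and 16.3 FPKM, a difference of -0.66 ± 0.32 (SE, limma adjusted p = 0.561). Map1lc3a was at 7.64 and 14.7 against 7.17 and 6.71 FPKM. All 3 had both DMF libraries below both controls, and against control replicate 1 alone their differences were -0.29, -0.26 and -0.12. Gabarapl1 did not share the order, at 28.2 and 32.7 against 30.9 and 30.5 FPKM, and its share of the family sum was 14.0% and 8.56% in control and 19.7% and 19.3% in DMF libraries.

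Receptors bind LC3 and GABARAP on 1 side and cargo on the other. Optn (optineurin, a receptor for damaged mitochondria and bacteria) was at 3.26 and 3.73 FPKM in control (mean 3.50 ± 0.331, SD, n = 2) and 2.17 and 1.73 FPKM in DMF libraries (1.95 ± 0.313), below both controls in both. Its log2 difference was -0.61 ± 0.21 (SE, limma adjusted p = 0.503) and -0.54 against control replicate 1 alone. Nbr1, a receptor for protein aggregates, was at 19.7 and 11.0 against 15.8 and 16.6 FPKM and overlapped. Of 19 other receptor genes, 15 were tested, with 9 below both controls (60.0%, against 26.8% of all tested genes) and 0 above (against 26.4%). At an unadjusted p under 0.05, limma counted 2 of the 15 lower and 0 higher, against 6.31% lower and 3.14% higher of all. The median of the 15 genes was -0.17, 0.00 under quantile normalization and -0.01 with voom. Calcoco1, a receptor for the endoplasmic reticulum, was at 11.8 and 10.8 against 7.44 and 7.01 FPKM, with a difference of -0.58 ± 0.17 (SE, limma adjusted p = 0.461). Pink1, the kinase that marks damaged mitochondria, was at 26.3 and 32.8 against 20.9 and 18.5 FPKM, and Fundc1, a mitochondrial receptor, at 9.64 and 13.6 against 8.89 and 8.63 FPKM. The DMF libraries were lower than both controls in these 3 genes.

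Among 29 other autophagy proteins, 28 were tested, with 9 below both controls (32.1%, against 26.8% of all tested genes) and 4 above (14.3%, against 26.4%). At an unadjusted p under 0.05, limma counted 1 of the 28 lower and 0 higher, against 6.31% lower and 3.14% higher of all. The median of the 28 genes was -0.01. Tecpr1, which takes part in fusion of autophagosomes with lysosomes, was at 18.1 and 13.0 FPKM in control and 7.63 and 7.53 FPKM in DMF libraries, a log2 difference of -0.93 ± 0.22 (SE, limma adjusted p = 0.370). Vamp8, a SNARE protein of the same fusion step, was at 23.6 and 56.1 against 17.7 and 17.5 FPKM. Rubcn, which restrains that step, was at 6.38 and 4.03 against 7.70 and 8.89 FPKM, higher in both DMF libraries. The groups of these 3 genes did not overlap.

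**Figure D3:**
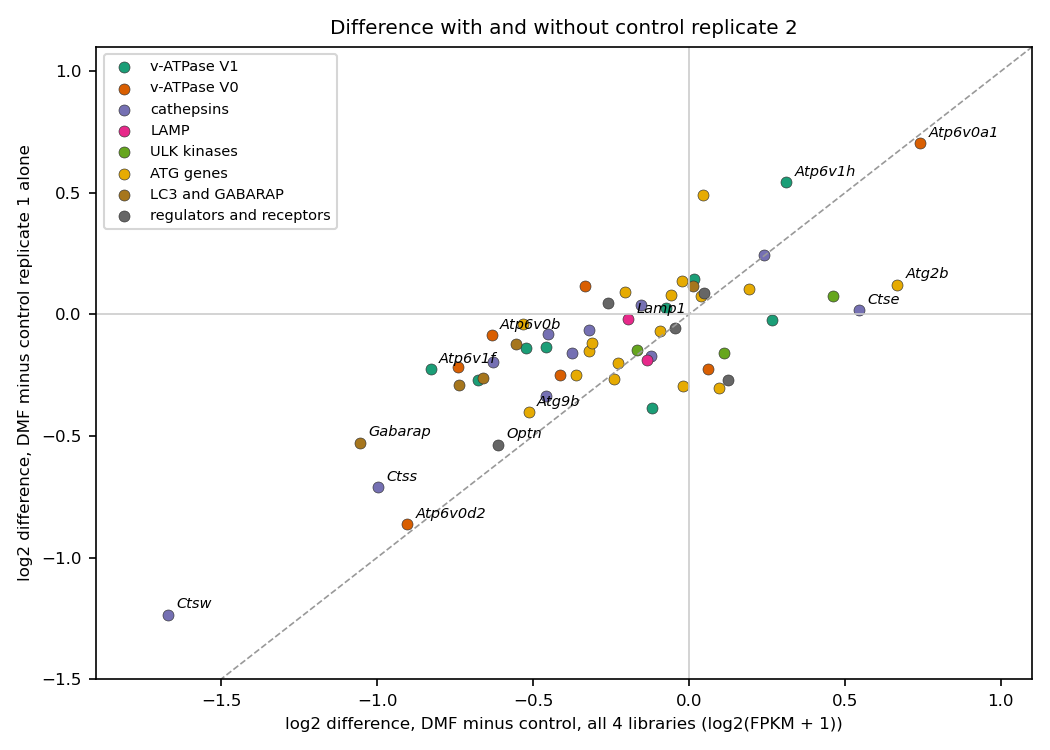
Log2 difference, DMF minus control, of the 59 tested genes with all 4 libraries (x axis) and against control replicate 1 alone (y axis), on the log2(FPKM + 1) scale, 1 point per gene and coloured by family, with a dashed line of equal values. Atp6v0d2 (-0.90 and -0.86) and Atp6v0a1 (0.74 and 0.71) lie near the line, while Gabarap (-1.05 and -0.53) and Atp6v1f (-0.83 and -0.22) lie well above it.

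The differences followed gene length among the 59 genes as among all genes. The 30 shorter genes, of 1063 to 4322 bases, had a median log2 difference of -0.49, with 19 below both controls (63.3%) and 1 above (3.33%), and a median ratio of control replicate 2 to control replicate 1 of 1.40. The 29 longer genes, of 4368 to 13456 bases, had a median of -0.04, with 10 below (34.5%) and 5 above (17.2%), and a ratio of 1.06. Split at the same 4322 bases, all tested genes had 34.2% below and 16.1% above with a median of -0.18 among the shorter 7075, and 16.4% below and 40.6% above with a median of 0.17 among the longer 5091. For the 30 shorter and 29 longer of the 59 genes, the medians against control replicate 1 alone were -0.20 and -0.07. With the gene length trend removed, the medians of these 30 and 29 genes were -0.21 and -0.19. The part of RNA quality or library preparation in this pattern was not tested.

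**Figure D4:**
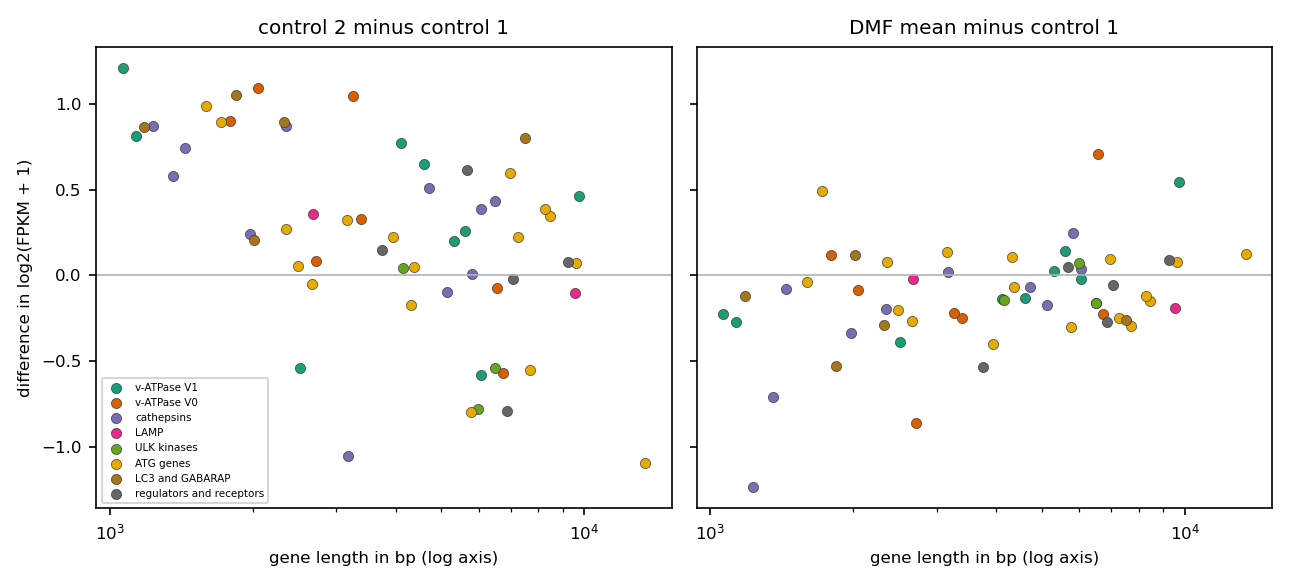
Difference in log2(FPKM + 1) against gene length in bases (log axis) for the 59 tested genes, coloured by family, for control 2 minus control 1 (left) and for the DMF mean minus control 1 (right). Points fall with length on the left (Spearman rho -0.53) and not on the right (rho 0.26).

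The genes whose promoter window held GTCACGTG did not stand apart with all libraries. The 8 genes, all tested, had a median log2 difference of -0.26, with 3 below both controls (Ctsd, Ctsa and Atp6v0b) and 1 above (Atg14), and the 38 tested genes with a window and no match had a median of -0.25, with 20 below and 4 above. Over all tested genes, 26.8% lay below both controls and 26.4% above. Against control replicate 1 alone the medians of the genes with and without a match were 0.04 and -0.16. The difference between these groups of genes was not tested.

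Further genes below the filter had few reads. Atp6v1g3 had 0 and 1 reads in control and 2 and 10 in DMF libraries, and Atp6v0e2 had 4 and 2 against 6 and 10. Atp6v1b1, Atp6v1c2, Atp6v0a4, Atp6v1fnb, Ctsg and Atg4a-ps each had at most 6 reads in any library, and Atp6v1e2 was listed at 0. A count of 0 allows up to 3 reads in a library, for counting error only.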

How the data were processed

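The 4 libraries hold total RNA read on an Illumina HiSeq2000, per the labels' protocols. The deposited table gives FPKM per library for 54532 genes, with names, coordinates and gene length in bases, per the file headers. The submitters' processing notes name edgeR, with no role, and build mm8. The table's coordinates equal those of GENCODE M21 (GRCm38) for 98.3% of shared identifiers and for 77 of the 82 genes described, so they are given as GRCm38. The aligner, counter and strand setting were not given in the sources used here. All columns of library values were used, leaving 0 unused.

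FPKM times gene length gave whole reads for 100% of values, within 0.01. The main test was limma 3.58.1 (lmFit, eBayes with a trend, two-sided) in R 4.3.3 on log2(FPKM + 1), DMF minus control, over 12166 genes (mean FPKM 1 or more), with p-values adjusted by Benjamini-Hochberg at a threshold of 0.05. The scripts were tested on simulated data. The genes named are 10 fixed ones, the 5 smallest p and the 3 highest levels in each family, genes with groups apart by a log2 difference of at least 1, genes below the filter with at least 10 reads in 1 library, and the 3 smallest p in each further list. Tcirg1, Cd3e, Cd4, the genes at fewer reads and some ATG and V0 genes were added after their values were seen, to complete isoforms and families. A gene that the rule takes is not reported here. The members, lists and rules were chosen with earlier results of these data known. Promoter windows come from RefSeq (GRCm38.p6).

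The deviations of same-numbered libraries from their group means had a correlation of -0.02 over the tested genes. Since control replicate 2 stood apart, this value cannot tell whether the replicate numbers pair the libraries. Alternatives were pseudocounts of 0.1 and 0.5, no filter, a mean FPKM of at least 5, trimmed mean of log ratios (30% of ratios and 5% of levels trimmed), quantile normalization, eBayes without a trend and robust, voom on recovered reads, a loess gene length trend (span 0.3) removed, a block for the replicate number, and leaving out single libraries.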

Additional observations from a re-analysis of the deposited data

How the results depend on the processing

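Over 16 alternatives, 28 of the 41 named tested genes kept the sign of their log2 difference. The other 13 genes changed sign. Under quantile normalization, the log2 difference was 0.0397 for Atg13, 0.112 for Atg3, 0.01 for Becn1, 0.151 for Ctsb and 0.234 for Lamp1. With voom it was 0.0708 for Atg13, 0.143 for Atg3, 0.12 for Becn1, 0.0105 for Ctsb and 0.0198 for Lamp2. With the gene length trend removed, without and with the replicate block, it was 0.131 for Atg3, 0.0129 for Lamp1, -0.0129 for Nbr1, -0.190 for Tfe3 and -0.0047 for Ulk1. Leaving out 1 library at a time gave -0.185 to 0.138 for Atg3, -0.781 to 0.116 for Atp6v0d1, -0.348 to 0.0384 for Ctsb, -0.0892 to 0.117 for Gabarapl1, -0.27 to 0.523 for Nbr1, -0.0037 to 0.103 for Tfe3, -0.567 to 0.0486 for Tfeb, -0.158 to 0.383 for Ulk1 and -0.357 to 0.0234 for Ulk3. limma called 552 genes of all tested with the replicate block, 1 of them among the 59 (Ctsw, limma adjusted p = 8.29e-05, and 0.207 with the length trend also removed), and 7 with the block and the length trend removed. Leaving out 1 library gave 6 to 7420 calls over all genes (7420 without control replicate 1, 1007 without control replicate 2), 0 to 40 among the 59, and 8 to 16 of the 59 above every control. Over all tested genes, 32.2% to 43.6% lay above every control with 1 library left out. With no filter, 11 of the 72 genes not at 0 throughout lay above every control (15.3%, against 20.6% of all). Of the 59 genes, 10 did under quantile normalization (16.9%, against 29.7% of all) and 13 with voom (22.0%, against 36.0%). The V1 median became 0.0161 with no filter. At a mean FPKM of 5 or more the medians were -0.266 (V1), -0.204 (ATG) and 0.0496 (regulators and receptors). Under quantile normalization they were 0.0522 (LAMP), 0.0061 (ATG) and 0.01 (regulators and receptors), and with voom -0.0050, 0.0708 and 0.12. For regulators and receptors the median was -0.0223 with the trimmed mean and -0.195 with the length trend removed, without and with the replicate block. Leaving out 1 library moved the medians to between -0.781 and -0.217 (V0), -0.248 and -0.0925 (V1), -0.578 and -0.160 (cathepsins), -1.06 and -0.26 (LC3 and GABARAP), -0.144 and 0.383 (ULK), -0.216 and -0.068 (ATG), -0.0582 and -0.0312 (regulators and receptors) and -0.374 and -0.133 (all 59). The summed LAMP ratio of DMF to control was 1.15 under quantile normalization, and the LC3 and GABARAP ratio was 0.412 to 0.782 with 1 library left out. The cause of these shifts was not tested.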
